A study of Homo sapiens with 16 samples.

Results

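Actin filaments grow from a pool of monomers, and 55 genes whose products hold those monomers, start new filaments, cap their ends or take them apart were followed here, out of 35810 genes with summed reads. The genes were taken by name from a list of cofilins, profilins, thymosins, capping proteins, the Arp2/3 complex and its activators, formins and the kinases and phosphatases of cofilin. The rule itself used no measured value, but the list was chosen with earlier results of these data known. They were grouped by role into 8 monomer-binding genes, 8 for severing and disassembly, 5 cofilin kinases and phosphatases, 6 for capping, 9 subunits of the Arp2/3 complex, 8 Arp2/3 activators, 8 formins and 3 genes of the WH2-domain nucleator families.

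The cells were pancreatic progenitors at day 19 of a stepwise differentiation of SA121, a human embryonic stem cell line, of NGN3-GFP genotype (a fluorescent reporter of the endocrine factor NEUROG3), so all groups share 1 line and 1 reporter. PolyA RNA was sequenced from 16 libraries in 6 groups. Latrunculin B (LatB), a toxin that binds actin monomers and keeps them out of filaments, was given at 0.5 µM for 3 h (n = 3), 6 h (n = 3), 12 h (n = 2) or 24 h (n = 3). Control 24 h (n = 2) received DMSO, the solvent. Control 0 h (n = 3) is tagged DMSO in the labels while the text of the series places it before treatment, and no solvent control of 3, 6 or 12 h was used here. LatB at 3, 6 and 12 h was therefore compared with control 0 h, so that these 3 comparisons share their controls, and LatB 24 h with control 24 h.

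Thymosins sequester actin monomers, profilins load them onto growing ends, and twinfilins and cyclase-associated proteins return them from old filaments. Cofilins and destrin sever aged filaments and are switched off by LIM kinases and on by slingshot phosphatases. New filaments are started as branches by the Arp2/3 complex, once WASP and WAVE proteins activate it, or as straight filaments by formins, and capping proteins stop growth. Free monomers also bind MRTF, a cofactor of the transcription factor SRF, through which cells tune many cytoskeletal genes.

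The libraries held 23609727 to 33515398 estimated reads. Of 13 progenitor markers, 12 had a mean of at least 1 CPM (counts scaled to library size) in every group, the exception being PTF1A, and PDX1 had group means of 268 to 375 CPM. Their levels were not steady: at 3, 6, 12 and 24 h of LatB, 5, 6, 3 and 5 were called higher and 2, 1, 3 and 4 lower. Over all genes tested, 16.8%, 22.9%, 19.1% and 21.9% were called higher at these times. The shares called lower were 14.7%, 20.4%, 16.8% and 18.8%. The 14 endocrine markers summed to 44.3 to 53.4 CPM in control 0 h, 82.2 to 96.8 in control 24 h, 76.2 to 123 at 3 h of LatB, 112 to 173 at 6 h, 111 to 152 at 12 h and 135 to 399 at 24 h. Of these markers 2, 7, 10 and 8 were called higher at 3, 6, 12 and 24 h of LatB and none lower. The 6 pluripotency markers summed to 393 to 438 CPM in the controls and 207 to 272 CPM in the LatB libraries. LIN28A alone ranged from 199.55 to 430 CPM over all libraries, close to the range of the sums, which thus rest mainly on 1 gene. Of the 6, 1 was called lower at 3 h, 1 higher and 1 lower at 6 h and at 12 h, and 2 lower at 24 h. The 7 hepatic markers summed to 1299 to 1531 CPM in control 0 h, 1831 to 1864 in control 24 h, 1879 to 2154 at 3 h of LatB, 2279.7 to 2498 at 6 h, 2306 to 2886 at 12 h and 1592 to 1947 at 24 h, where the groups overlapped. Of them 2, 2, 5 and 1 were called higher at 3, 6, 12 and 24 h and none lower. Of 12 stromal markers, 1 was called higher and 1 lower at 3 h, 2 lower at 6 h, 3 higher at 12 h and none at 24 h. No marker of these lists was at 0 throughout a group. The part of these markers in the values below was not tested, and in bulk RNA fewer cells of a type and less RNA per cell cannot be told apart. LatB 12 h replicate 2 stood apart: its 12 stromal markers summed to 1182 CPM, against 193 to 462 CPM in the other 15 libraries, and it correlated with replicate 1 across genes at 0.967 (Pearson, log2 CPM), against 0.980 to 0.986 in the other replicate pairs. Log2 fold changes of members called at 12 h are therefore also given without it. Marker call counts and TPM ratios at 12 h include it. The labels do not say whether replicates are separate cultures, so p-values measure the spread between these libraries, which may be technical.

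Levels between genes were set side by side on the TPM scale, which divides by transcript length. The 55 genes together took 0.994% to 1.27% of all TPM of a library. The beta-thymosins led, with TMSB4X at a median of 3003 TPM over the 16 libraries (2428 to 3462) and TMSB10 at 2609 TPM (2180.0 to 3434), ranges that overlap. CFL1, the main cofilin, followed at 1019 TPM (910.5 to 1186), and PFN1, the main profilin, at 387 TPM (342 to 476). At the low end were the formin DIAPH2 at 1.56 TPM (0.98 to 2.32) and SCIN, a calcium-dependent severing protein, at 1.32 TPM (0.543 to 2.75), whose ranges overlap. Within a pair of related genes 1 often carried most of the RNA: CAP1 stood at 203 TPM against 3.80 TPM for CAP2. ARPC5 stood at 169 TPM against 45.4 TPM for ARPC5L. CFL2 was 0.0156 to 0.0243 of CFL1 in TPM over the libraries.

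**Figure D1:**
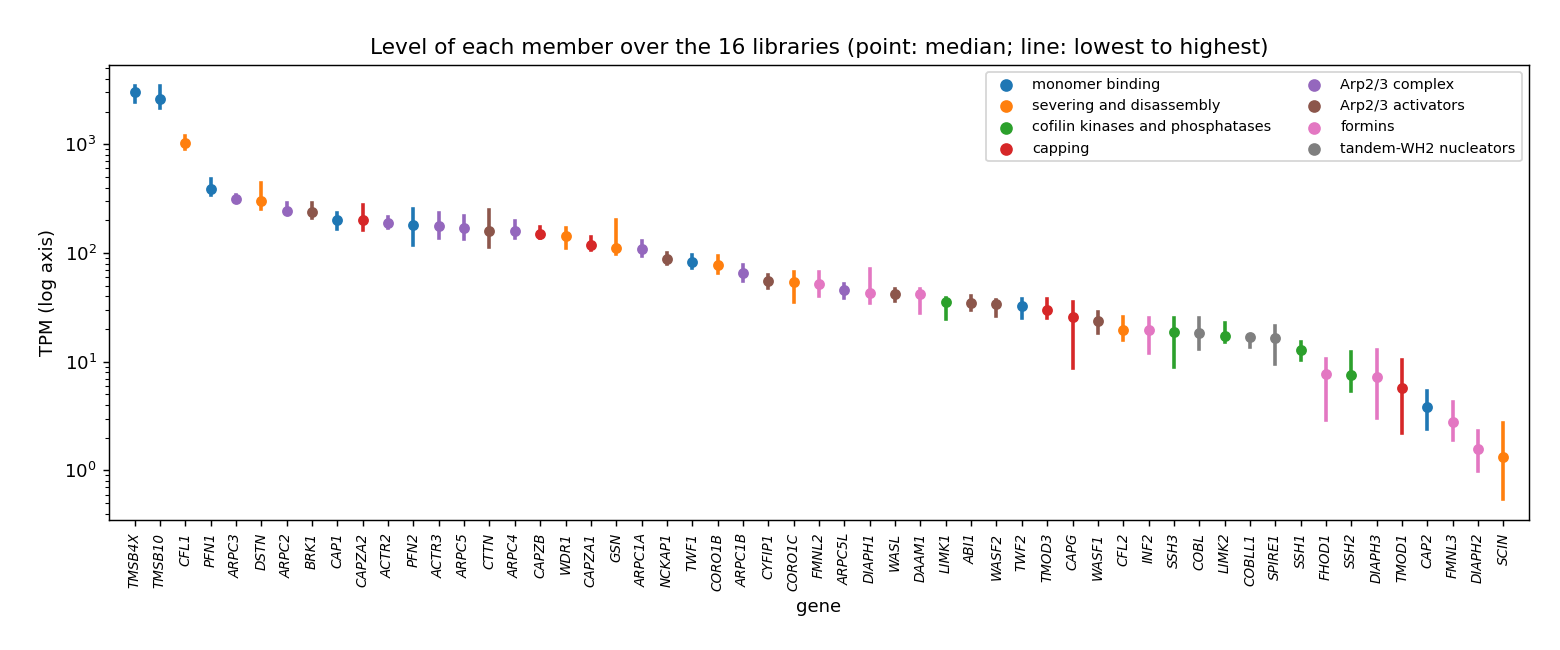
TPM of the 55 genes on a log axis, ordered by median. Points are medians over the 16 libraries, lines run from the lowest to the highest library and colours give the role; TMSB4X and TMSB10 lie at the top and SCIN at the bottom, at either end of a log axis.

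The thymosin pair had the highest RNA levels of the list and its members later moved in opposite directions, so their coding sequences are shown to let them be told apart (stop codon left out, GENCODE release 44 on GRCh38). TMSB4X lies on chromosome X from 12975110 to 12977227 (forward strand) and TMSB10 on chromosome 2 from 84905656 to 84906671 (forward strand), and the lines below give the joined coding exons of 1 transcript of each. Capitals mark the bases that differ, which are 37 of 132, so 71.97% of the bases are identical.
TMSB4X: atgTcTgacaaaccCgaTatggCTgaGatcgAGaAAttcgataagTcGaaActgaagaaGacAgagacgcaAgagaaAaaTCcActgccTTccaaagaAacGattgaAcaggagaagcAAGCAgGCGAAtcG
TMSB10: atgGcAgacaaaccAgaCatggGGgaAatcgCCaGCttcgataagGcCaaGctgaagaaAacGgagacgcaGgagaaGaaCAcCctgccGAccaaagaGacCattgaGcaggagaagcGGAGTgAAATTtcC
The longest run that both share has 10 bases, and their annotated transcripts share no stretch of 31 bases, a stretch of that length being enough to tell them apart. The same held for 12 other pairs of related genes checked here, the exception being FMNL2 and FMNL3 with 2 shared stretches.

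All 55 genes passed the filter on low counts and were tested with edgeR's quasi-likelihood test, a gene being called at an adjusted p under 0.05 over the 16705 genes tested. At 3 h of LatB, 9 members were higher and 8 lower, or 30.9% of them, against 31.6% of all genes called (16.8% higher and 14.7% lower). At 6 h, 15 were higher and 14 lower (52.7% against 43.3%, of which 22.9% higher and 20.4% lower). At 12 h, 7 were higher and 18 lower (45.5% against 35.8%, of which 19.1% higher and 16.8% lower). Leaving out LatB 12 h replicate 2 leaves 1 library in that group. Among the 7 rises, those of SSH2, GSN, ARPC2 and ARPC1A were then smaller, at 0.19, 0.27, 0.09 and 0.11. The rises of TMSB10, PFN1 and WASF1 were then 0.33, 0.26 and 0.25. Among the falls ARPC5 was then -0.50, ACTR3 -0.55, WDR1 -0.41, INF2 -0.67 and COBL -0.65. SPIRE1 was then -0.54, NCKAP1 -0.25, CAP2 -0.95 and DSTN -0.50. The other falls at 12 h are given without that library under each gene below. At 24 h, 13 were higher and 15 lower (50.9% against 40.8%, of which 21.9% higher and 18.8% lower). Leaving out control 24 h replicate 1 leaves 1 library in that group. The rises at 24 h of CAPZB, DAAM1, WASF1, CAP1, ARPC5L, ACTR2 and TWF2 were then smaller, at 0.14, 0.13, 0.18, 0.19, 0.22, 0.10 and 0.19. Those of FMNL3 and ARPC1A were then 0.38 and 0.16. The falls of TMOD1 and SSH3 were then -0.78 and -0.73. Calls at 24 h that depended on that library are given under each gene below. Members were counted more deeply than most genes, with a median of mean CPM of 105 against 18.5 over all genes tested, and the part of this in their shares was not tested.

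Most changes were small. A log2 fold change of at least 0.5 among called members was seen in 4 at 3 h (11.5% of all genes passed the same rule), 6 at 6 h (18.4%), 11 at 12 h (17.2%) and 6 at 24 h (18.8%). The median log2 fold change of the members was 0.02 at 3 h, 0.04 at 6 h, -0.06 at 12 h and 0.03 at 24 h, beside 0.0021, -0.01, 0.01 and 0.0081 over all genes tested. Over the 4 comparisons, 20 members were called only as higher, 24 only as lower, 4 in both directions and 7 never. These counts, and that of calls in all 4, were not made over all genes tested. Of all genes, 31.6% to 43.3% were called in each of these comparisons. The 7 never called were TWF1, CORO1B, CAPZA1, ARPC1B, ARPC3, BRK1 and DIAPH2. Called in all 4 comparisons were ACTR3 and CORO1C, lower each time, and WASF1, higher each time. Without TMM scaling (edgeR's correction of library size for the make-up of the RNA) the split was 3 higher and 11 lower at 3 h and 7 higher and 18 lower at 6 h, where the median of all genes became -0.075 and -0.10. Of all 16705 genes tested, 1931 were then higher and 3411 lower at 3 h, and 2708 higher and 4475 lower at 6 h. Of the 99 calls in these comparisons, 58 held when each library was left out in turn.

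With control 24 h in place of control 0 h, or control 0 h at 24 h, 22 of these 99 calls were lost. These were COBLL1, WASL and TWF2 at 3 h, and TMSB10, DAAM1, WASL, CAP2, SPIRE1, ABI1, ARPC2, LIMK2 and ARPC4 at 6 h. At later times they were CAP2, DIAPH1, GSN, ARPC2 and CFL2 at 12 h, and WASL, WASF1, ACTR2, FMNL3 and TWF2 at 24 h. On log2(TPM + 1) or log2(TPM + 0.1), tested with limma, 40 were lost. These were SSH1, DAAM1, WASL, CORO1C, WASF1, ABI1 and TMOD3 at 3 h, and TMSB10, DAAM1, WASL, PFN1, CAP2, WASF1, SPIRE1, ABI1, ARPC5L, ARPC2, LIMK2, ARPC4 and ARPC1A at 6 h. At later times they were NCKAP1, WASF1, DSTN, SSH2, ARPC2, CFL2, ARPC1A and CYFIP1 at 12 h, and CAPZB, DAAM1, CORO1C, WASF1, ACTR3, CAP1, SPIRE1, ACTR2, WASF2, TMSB4X, ARPC1A and TWF2 at 24 h.

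**Figure D2:**
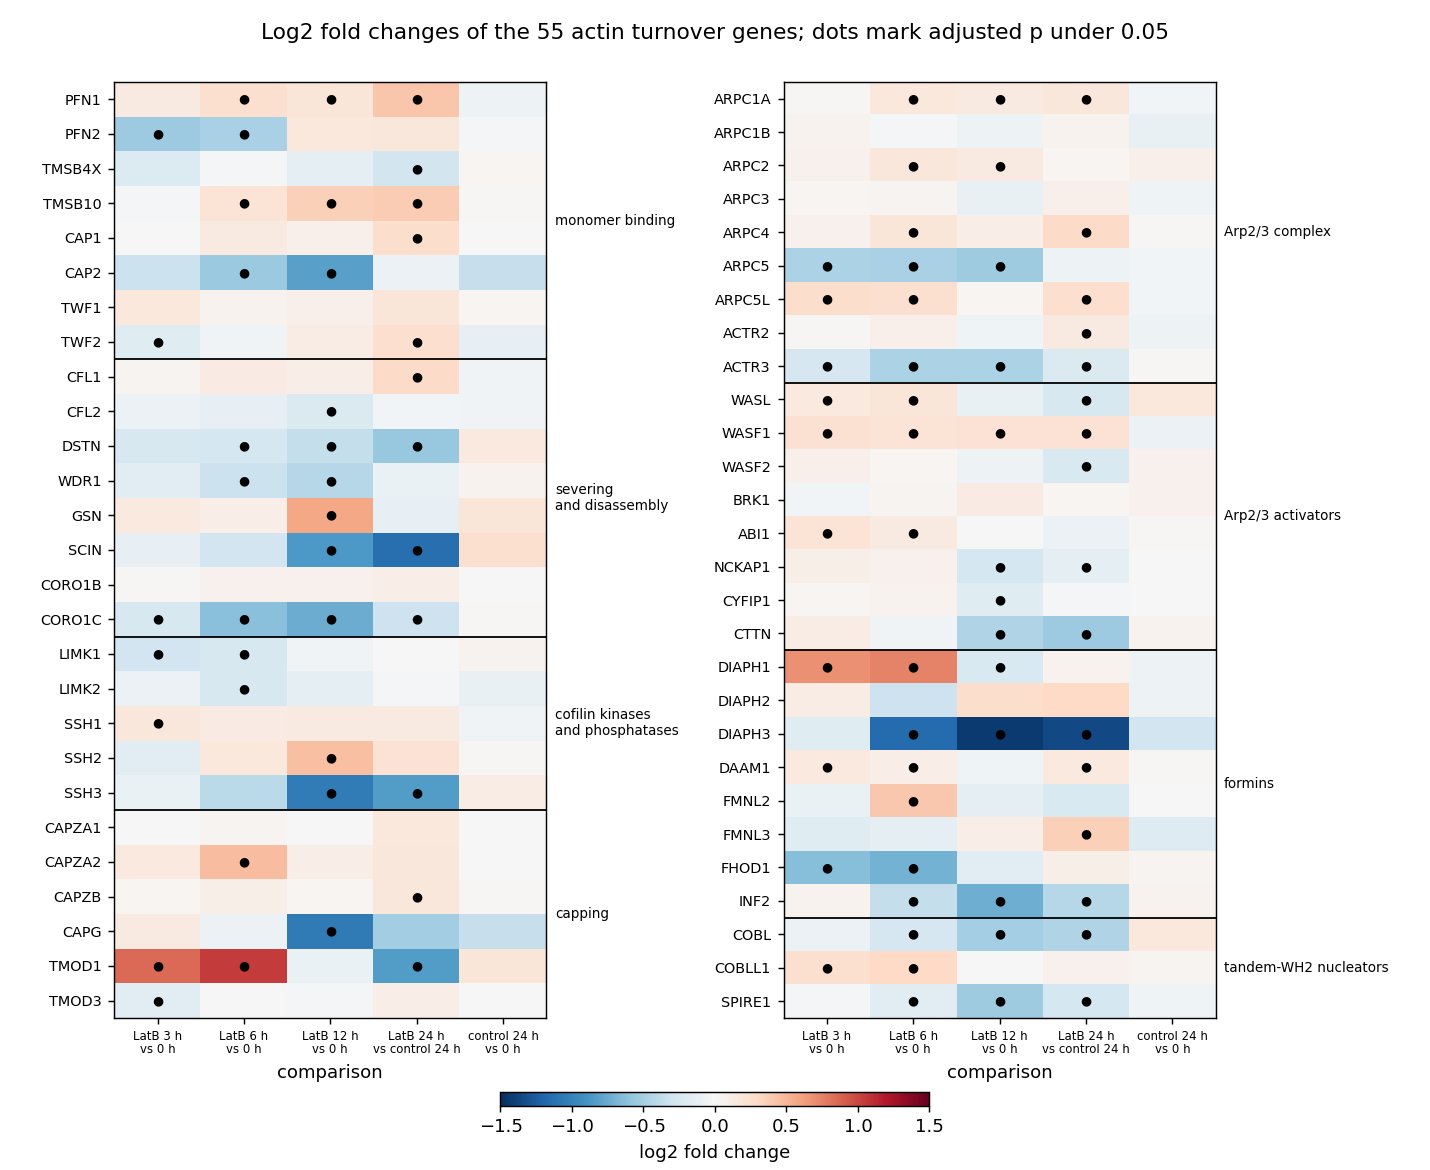
Log2 fold changes of the 55 members by role, in each comparison of LatB with its control and in control 24 h against control 0 h. Red is higher, blue is lower and dots mark adjusted p under 0.05 (edgeR); the last column holds no dot, while TMOD1 and DIAPH1 turn from red at 3 h and 6 h to blue or near white later.

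Among the monomer-binding genes 2 of 8 were called lower at 3 h and none higher, and at 24 h 4 were called higher and 1 lower. Over all genes tested, 14.7% were lower and 16.8% higher at 3 h, and 21.9% higher and 18.8% lower at 24 h. Each role holds few genes, and counts by role were not tested against such shares. The neuronal-type profilin PFN2 fell early and came back. It stood at 185, 164 and 172 CPM in control 0 h, 119.9, 125 and 113 CPM at 3 h of LatB and 123, 124 and 126 CPM at 6 h. It then stood at 169 and 217 CPM at 12 h, 188, 197 and 191 CPM at 24 h and 164 and 178 CPM in control 24 h. Every library of 3 h and 6 h lay below every control, while the libraries of 24 h lay above both of their controls without being called. The log2 fold change was -0.54 ± 0.08, adjusted p = 0.000136 at 3 h, -0.49 ± 0.08, adjusted p = 0.000213 at 6 h and 0.16 ± 0.09, adjusted p = 0.143 at 24 h. PFN1 took the other course, from 289 and 311 CPM in control 24 h to 389.7, 401 and 407 CPM at 24 h of LatB (0.41 ± 0.06, adjusted p = 0.000156), after called rises of 0.24 at 6 h and 0.18 at 12 h. The rise at 12 h was not called without control 0 h replicate 2 (0.18) or 3 (0.14) or without LatB 12 h replicate 1 (0.10).

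CAP2, the less abundant cyclase-associated protein, had the widest log2 change of this group. Its values were 8.69, 8.78 and 8.36 CPM in control 0 h, 6.97, 6.64 and 7.05 at 3 h, 5.14, 5.87 and 6.59 at 6 h and 4.46 and 5.34 at 12 h. In control 24 h it stood at 5.32 and 8.17 CPM and at 24 h of LatB at 4.09, 6.78 and 8.15 CPM. The libraries of 3 h, 6 h and 12 h lay below all of control 0 h, whereas at 24 h the groups overlapped and control 24 h was itself spread. The changes were -0.55 ± 0.21, adjusted p = 0.0491 at 6 h and -0.81 ± 0.24, adjusted p = 0.0195 at 12 h. The call at 6 h was lost when any of its 6 libraries was left out (-0.67 to -0.49), and that at 12 h without LatB 12 h replicate 1 (-0.69). Against control 24 h in place of control 0 h the changes were -0.20 at 6 h and -0.46 at 12 h, neither called.

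The thymosins parted. TMSB10 stood at 541 and 578 CPM in control 24 h and 714, 682 and 785 CPM at 24 h of LatB (0.38 ± 0.08, adjusted p = 0.00259), with no overlap. TMSB4X stood at 809 and 859 and 743, 599 and 722 CPM in the same groups (-0.28 ± 0.08, adjusted p = 0.0183), a fall that was not called without control 24 h replicate 2 (-0.23) or LatB 24 h replicate 2 (-0.19). TMSB10 was also called higher at 12 h (0.36) and at 6 h (0.20), where its groups overlapped and the call was lost without control 0 h replicate 2 (0.15) or 3 (0.16) or LatB 6 h replicate 1 (0.13) or 3 (0.19). CAP1 (0.27) and TWF2 (0.25), which recycle monomers, were called higher at 24 h, and neither was called without control 24 h replicate 1 (0.19 for each). On the TPM scales CAP1 turned to -0.06 and TWF2 was 0.20 to 0.21 and not called, and against control 0 h TWF2 was 0.13 and not called. TWF2 had been lower at 3 h (-0.18), a call that was lost without control 0 h replicate 1 (-0.16), and its relative TWF1 was between 0.05 and 0.18 in the 4 comparisons, never called.

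For severing and disassembly, called members were lower at 3 h (1 of 8), 6 h (3) and mostly at 12 h (5 lower, 1 higher), and 3 were lower and 1 higher at 24 h. Over all genes tested, 14.7%, 20.4%, 16.8% and 18.8% were lower at 3, 6, 12 and 24 h. The shares higher were 16.8%, 22.9%, 19.1% and 21.9%. CORO1C, a coronin that binds filaments and helps their turnover, fell at every time. It stood at 130.3, 121 and 131 CPM in control 0 h, 107, 112 and 106 CPM at 3 h, 87.9, 82 and 78.6 CPM at 6 h and 78.6 and 73.4 CPM at 12 h. At 24 h it was at 107, 95.9 and 111 CPM, against 126 and 133 CPM in control 24 h. No LatB library reached its controls, and those of 24 h lay above those of 6 h and 12 h. The log2 fold changes were -0.62 ± 0.06, adjusted p = 4.3e-06 at 6 h, -0.75 ± 0.07, adjusted p = 4.75e-06 at 12 h (-0.70 without replicate 2) and -0.30 ± 0.07, adjusted p = 0.0027 at 24 h.

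SCIN, or adseverin, a gelsolin relative at the lowest level of the list, fell late. Its values were 3.71, 4.89 and 4.88 CPM in control 0 h, 4.25, 4.19 and 3.95 at 3 h, 4.03, 3.48 and 3.57 at 6 h and 2.67 and 2.30 at 12 h. They were 5.80 and 4.82 CPM in control 24 h and 2.18, 2.73 and 2.33 CPM at 24 h. At 3 h and 6 h the libraries overlapped with control 0 h, and at 12 h and 24 h they lay below their controls. The change was -0.86 ± 0.17, adjusted p = 0.00163 at 12 h (-0.75 without replicate 2) and -1.13 ± 0.16, adjusted p = 0.000125 at 24 h. DSTN (destrin), which severs filaments as cofilin does, stood at 274 and 305 CPM in control 24 h and 214, 176 and 196 CPM at 24 h of LatB (-0.57 ± 0.10, adjusted p = 0.000586), without overlap. CFL1 moved the other way in the same libraries, from 541 and 563 to 664, 644 and 713 CPM (0.29 ± 0.06, adjusted p = 0.00302). Earlier falls of DSTN were -0.27 at 6 h, not called without control 0 h replicate 1 (-0.26) or 3 (-0.24) or LatB 6 h replicate 3 (-0.27), and -0.35 at 12 h, not called without LatB 12 h replicate 1 (-0.22). WDR1, a cofactor of cofilin, was lower at 6 h (-0.32 ± 0.06, adjusted p = 0.00109) and 12 h (-0.43 ± 0.07, adjusted p = 0.000487) and not called at 24 h (-0.10).

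GSN, gelsolin, went against this group at 12 h, where its libraries stood at 215 and 316 CPM against 189.6, 167 and 178 CPM in control 0 h (0.58 ± 0.14, adjusted p = 0.00529). The higher value was that of replicate 2, the library with high stromal markers, and without it the change was 0.27 and not called. CFL2, the muscle-type cofilin, was called lower at 12 h only (-0.22), and this was lost without control 0 h replicate 1 (-0.21) or 3 (-0.22) or LatB 12 h replicate 1 (-0.12), was -0.33 without LatB 12 h replicate 2, and turned to 0.06 on the TPM scale. CORO1B was between 0.01 and 0.10.

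The regulators of cofilin were split by gene. LIMK1, which inactivates cofilin by phosphorylation, was lower at 3 h (-0.28 ± 0.06, adjusted p = 0.00255) and 6 h (-0.24 ± 0.06, adjusted p = 0.00578) and close to its control at 24 h (-0.0014). LIMK2 was called lower at 6 h alone (-0.24 ± 0.07, adjusted p = 0.0124), a call lost against control 24 h (-0.12) and on both TPM scales (-0.27 to -0.26). Among the slingshot phosphatases, which reactivate cofilin, SSH3 fell late. SSH3 stood at 31.1, 35.5 and 31.3 CPM in control 0 h, 31.5, 29.1 and 30.9 CPM at 3 h, 24.6, 24.8 and 24.5 CPM at 6 h and 20.3 and 11.6 CPM at 12 h. In control 24 h it was at 37.6 and 32.8 CPM and at 24 h of LatB at 15.1, 25.05 and 18.9 CPM. The LatB libraries of 6 h, 12 h and 24 h all lay below the controls, with a wide spread at 12 h and 24 h. The change was -1.05 ± 0.21, adjusted p = 0.00174 at 12 h and -0.83 ± 0.20, adjusted p = 0.00421 at 24 h; the first was -0.69 without LatB 12 h replicate 2, and the second was not called without control 24 h replicate 1 (-0.73).

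SSH2 was at 17.1, 17.2 and 17.3 CPM in control 0 h, 15.6, 15.7 and 14.6 at 3 h, 19.9, 19 and 18.4 at 6 h and 19.6 and 27.5 at 12 h. It was at 16.9 and 17.8 CPM in control 24 h and 21.4, 18.7 and 20.5 CPM at 24 h. The highest value was that of LatB 12 h replicate 2, and the call at 12 h (0.46 ± 0.11, adjusted p = 0.00529) was lost without it (0.19). SSH1 was called higher at 3 h (0.17), but not without control 0 h replicate 1 (0.16) or 2 (0.14) or LatB 3 h replicate 1 (0.15) or 2 (0.13).

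Capping genes held the widest rise of the list. TMOD1, a tropomodulin that caps the slow-growing pointed end, stood at 10.8, 11.3 and 11.03 CPM in control 0 h, 18.6, 18.98 and 22.01 CPM at 3 h and 21.7, 24.1 and 22.7 CPM at 6 h. It stood at 13.5 and 7.41 CPM at 12 h, 4.78, 8.81 and 7.42 CPM at 24 h and 13.1 and 12.03 CPM in control 24 h. All libraries of 3 h and 6 h lay above all controls, the pair of 12 h lay on both sides of control 0 h, and those of 24 h lay below both of their controls. The changes were 0.84 ± 0.20, adjusted p = 0.00582 at 3 h, 1.04 ± 0.20, adjusted p = 0.000959 at 6 h and -0.84 ± 0.23, adjusted p = 0.00969 at 24 h, the last not called without control 24 h replicate 1 (-0.78). Of the 31-base stretches in TMOD1 transcripts, 44.8% also occur in another gene, most of them in TSTD2, which overlaps it on the other strand, and the sources do not say whether reads were counted by strand. TSTD2 itself stood at 29.9, 28.6 and 29.6 CPM in control 0 h and 28.3, 27.8 and 25.8 CPM at 3 h, was not called at 3 h (-0.11) or 6 h (-0.02), and was higher at 24 h (0.27), when TMOD1 was lower.

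CAPG, a gelsolin-like protein that caps fast-growing barbed ends, stood at 17.7, 14.7 and 17.98 CPM in control 0 h, 16.7, 17.6 and 20.96 at 3 h, 15.7, 15.2 and 16.4 at 6 h and 9.19 and 7.001 at 12 h. It stood at 14.8 and 11.5 CPM in control 24 h and 6.58, 11.97 and 8.91 CPM at 24 h. Only the 12 h libraries lay below all of their controls, and the groups of 24 h overlapped. The change was -1.06 ± 0.21, adjusted p = 0.00186 at 12 h (-0.87 without replicate 2) and -0.52 ± 0.20, adjusted p = 0.0557 at 24 h. The subunits of the barbed-end capping protein moved little: CAPZA2 rose at 6 h alone (0.47 ± 0.06, adjusted p = 3.97e-05), CAPZB was called at 24 h (0.17) but not without control 24 h replicate 1 (0.14), and CAPZA1 was never called (0.01 to 0.16). TMOD3, the widely expressed tropomodulin, was called at 3 h (-0.16), but not without control 0 h replicate 1 (-0.14) or 3 (-0.15).

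**Figure D3:**
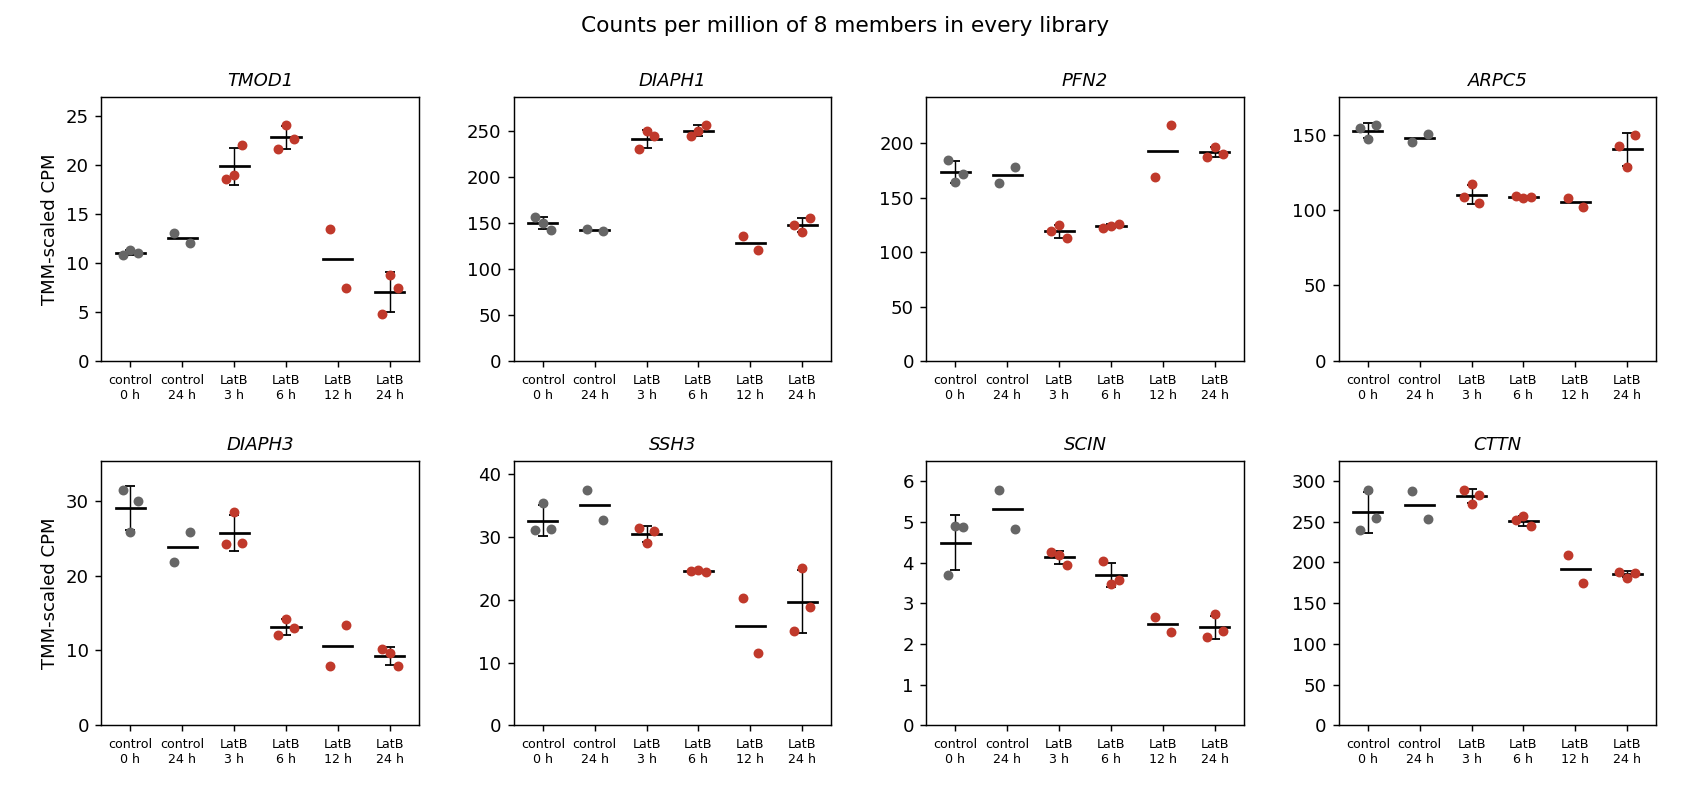
CPM of 8 members, scaled by TMM, in each of the 16 libraries by group. Points are libraries, lines are group means and error bars SDs, drawn for groups of 3. TMOD1 and DIAPH1 are high and PFN2 low at 3 h and 6 h, and ARPC5 is low at 3 h, 6 h and 12 h. DIAPH3 and SSH3 are low at 6 h, 12 h and 24 h, and SCIN and CTTN at 12 h and 24 h.

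The Arp2/3 complex did not move as a unit. At 6 h 4 of its 9 subunits were called higher and 2 lower, and at 24 h 4 were higher and 1 lower. Over all genes tested, 22.9% were higher and 20.4% lower at 6 h, and 21.9% and 18.8% at 24 h. Without TMM scaling the counts of subunits were 1 and 2 at 6 h and 4 and 0 at 24 h. Of all 16705 genes tested, 2708 were then higher and 4475 lower at 6 h, and 4023 higher and 2908 lower at 24 h. The 2 that fell at 6 h were ARPC5 and ACTR3. ARPC5, a small subunit at the junction of branch and mother filament, was at 154, 147 and 156 CPM in control 0 h, 109, 117 and 104 CPM at 3 h, 109, 108 and 109 CPM at 6 h and 108 and 102 CPM at 12 h. It was at 145 and 151 CPM in control 24 h and 143, 128 and 149.6 CPM at 24 h. All 8 libraries of 3 h to 12 h lay below every control, and the groups of 24 h overlapped. The changes were -0.47 ± 0.06, adjusted p = 4.27e-05 at 3 h, -0.49 ± 0.06, adjusted p = 1.9e-05 at 6 h, -0.54 ± 0.07, adjusted p = 4.25e-05 at 12 h and -0.08 ± 0.06, adjusted p = 0.359 at 24 h.

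ARPC5L, the alternative to ARPC5 in the same position, went the other way at 3 h, from 34.9, 33.4 and 36.1 CPM in control 0 h to 39.8, 42.1 and 43.9 CPM (0.27 ± 0.05, adjusted p = 0.00183). It was also higher at 6 h (0.24) and at 24 h (0.26, not called without control 24 h replicate 1, 0.22). ACTR3, an actin-related protein at the core of the complex, stood at 203, 189 and 205 CPM in control 0 h, 162, 176 and 161 CPM at 3 h, 143, 145 and 143 CPM at 6 h and 135 and 149.8 CPM at 12 h. In control 24 h it stood at 191 and 211 CPM and at 24 h of LatB at 184, 155 and 179.9 CPM. The LatB libraries lay below their controls at each time, by the narrowest margin at 24 h. Its changes were -0.26 ± 0.07, adjusted p = 0.011 at 3 h, -0.47 ± 0.07, adjusted p = 0.000109 at 6 h, -0.48 ± 0.08, adjusted p = 0.000378 at 12 h and -0.22 ± 0.08, adjusted p = 0.0357 at 24 h, the last lost without control 24 h replicate 2 or LatB 24 h replicate 2 (-0.14 for each). Its partner ACTR2 was between -0.06 and 0.13, called at 24 h alone and not when any of the 5 libraries was left out (0.10 to 0.16).

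The other subunits changed by at most 0.29, the value of ARPC4 at 24 h (0.29 ± 0.06, adjusted p = 0.003). ARPC4 was also called at 6 h (0.18), a call lost when any library but control 0 h replicate 1 was left out (0.14 to 0.17). ARPC1A was called higher at 6, 12 and 24 h (0.14 to 0.16), and ARPC2 at 6 h (0.17) and 12 h (0.13), but several of these calls rested on 1 library. ARPC1A was not called at 6 h without control 0 h replicate 2 (0.11) or LatB 6 h replicate 2 (0.12), at 12 h without control 0 h replicate 2 (0.09) or 3 (0.15) or LatB 12 h replicate 2 (0.11), or at 24 h without either control (0.16 for each). ARPC2 was not called at 12 h without any of the control 0 h libraries (0.12 to 0.13) or LatB 12 h replicate 2 (0.09). ARPC1A and ARPC1B share 59.9% and 38.2% of their 31-base stretches with another gene, in the main an annotated readthrough of both, so their counts are uncertain. ARPC1B and ARPC3 were never called.

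Among the activators of the complex, 3 of 8 were called higher and none lower at 3 h and at 6 h. At 12 h 1 was higher and 3 lower, and at 24 h 1 was higher and 4 lower. Over all genes tested, 16.8%, 22.9%, 19.1% and 21.9% were higher at 3, 6, 12 and 24 h. The shares lower were 14.7%, 20.4%, 16.8% and 18.8%. The early rises were small and none of them was called without TMM scaling. Of all genes tested, 1931 were then called higher at 3 h and 2708 at 6 h, against 2810 and 3819 with TMM scaling. WASL (N-WASP), which relays signals from Cdc42, was higher at 6 h (0.18 ± 0.04, adjusted p = 0.00358) and lower at 24 h (-0.24 ± 0.05, adjusted p = 0.00107). Neither was called with the other control (0.03 at 6 h and -0.09 at 24 h). Its rise at 3 h (0.15) was -0.01 against control 24 h in place of control 0 h and was not called without control 0 h replicate 1 or 2 or LatB 3 h replicate 1 or 2 (0.11 to 0.13). ABI1, a WAVE subunit, was higher at 3 h (0.20 ± 0.04, adjusted p = 0.0035), while its call at 6 h (0.14) was lost without control 0 h replicate 2 or 3 or LatB 6 h replicate 2 or 3 (0.08 to 0.13). WASF1 (WAVE1) was called higher at each time (0.20 to 0.23), but each of these calls rested on single libraries. It was lost without control 0 h replicate 2 at 3 h (0.19), 6 h (0.16) and 12 h (0.17), without control 0 h replicate 3 at 6 h (0.17) and 12 h (0.18), and without LatB replicate 2 (0.13) or 3 (0.19) at 6 h or 1 at 12 h (0.17). At 24 h it was lost without control 24 h replicate 1 (0.18) or LatB 24 h replicate 2 or 3 (0.21 for each). WASF2 (WAVE2) was called lower at 24 h (-0.23), but not without control 24 h replicate 2 (-0.20).

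Cortactin (CTTN), which stabilises branches, had the widest change of this group. It was at 240.2, 288 and 255 CPM in control 0 h, 289, 272 and 282 CPM at 3 h, 252, 257 and 245 CPM at 6 h and 209 and 174 CPM at 12 h. It was at 287 and 254 CPM in control 24 h and 189, 181 and 187 CPM at 24 h. At 3 h and 6 h the groups overlapped, and at 12 h and 24 h every LatB library lay below its controls. The change was -0.45 ± 0.08, adjusted p = 0.00117 at 12 h (-0.32 without replicate 2) and -0.54 ± 0.08, adjusted p = 0.000222 at 24 h. NCKAP1, the scaffold of the WAVE complex, was at 224, 211 and 223 CPM in control 0 h, 237, 242 and 223 at 3 h, 228, 234 and 225 at 6 h and 185 and 181 at 12 h. It was at 210.3 and 227 CPM in control 24 h and 199, 196 and 199 CPM at 24 h. The libraries of 12 h and 24 h lay below their controls and those of 6 h just above control 0 h, without a call. The change was -0.26 ± 0.05, adjusted p = 0.00112 at 12 h, and the call at 24 h (-0.14 ± 0.05, adjusted p = 0.033) was lost without control 24 h replicate 2 or any LatB 24 h library (-0.14 to -0.09). CYFIP1, its partner, was called lower at 12 h (-0.18), but not without LatB 12 h replicate 2 (-0.11), and BRK1, the smallest subunit, was never called.

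The CTTN total covers transcripts of different kinds, which was noticed after the values were seen. By estimated reads, protein-coding transcripts held at least 73.0% of CTTN in every library. By TPM, which divides by length, the 8 transcripts annotated with a retained intron took 45.9% to 56.6% in control 0 h and 53.1% to 59.8% in control 24 h. At 24 h of LatB they took 37.7% to 42.9%. Their summed TPM was 147 and 106 in control 24 h and 54.2, 50 and 43.1 at 24 h, and that of the 4 protein-coding transcripts was 93.97 and 90.9 and 72.02, 66.2 and 70.5. Both kinds were thus lower in every LatB library of 24 h than in either control. At 3 h the protein-coding sum lay at 101, 99.5 and 97.5 TPM, above control 0 h (90.6, 95.9 and 90.7), and the retained-intron sum at 88.9, 62.8 and 84.1 TPM, overlapping with control 0 h (77.7, 128 and 119). Counted from protein-coding transcripts alone, CTTN changed by -0.37 at 12 h and -0.42 at 24 h, both called. Over the members without CTTN, retained-intron transcripts took 1.53% to 1.76% of TPM in control 0 h, and 1.299% to 1.49% at 24 h of LatB against 1.33% to 1.96% in control 24 h, with overlap.

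**Figure D4:**
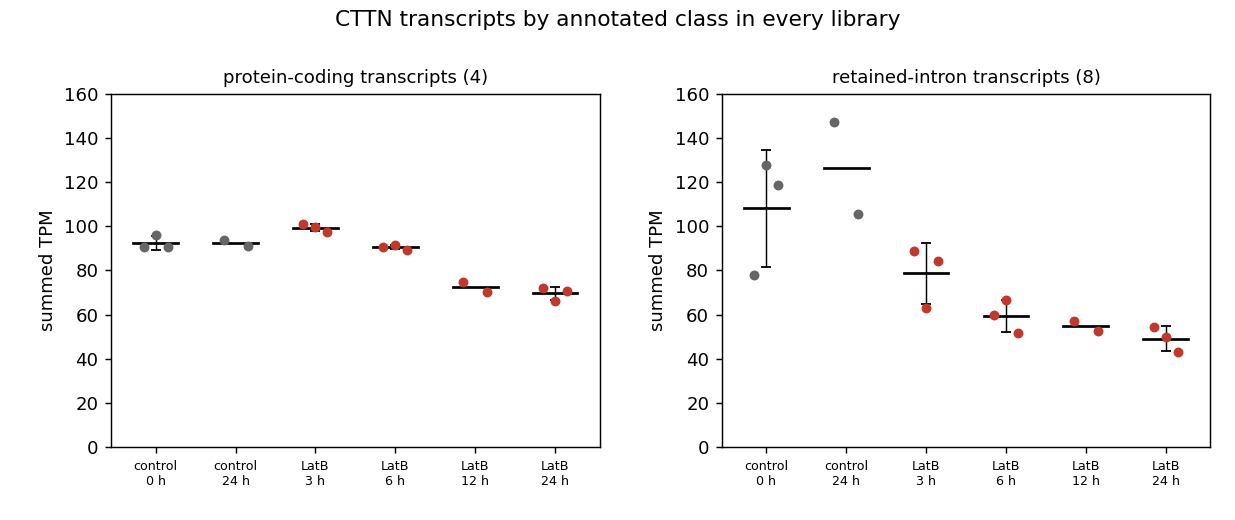
Summed TPM of the protein-coding and the retained-intron transcripts of CTTN in each library. Lines are group means and error bars SDs, drawn for groups of 3; the retained-intron sum spreads from 77.7 to 128 TPM in control 0 h and lies between 43.1 and 54.2 TPM at 24 h of LatB.

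Formins showed both the strongest fall and a strong passing rise. DIAPH3, a formin with known roles in cell division, was at 31.5, 25.8 and 29.9 CPM in control 0 h, 24.2, 28.5 and 24.3 CPM at 3 h, 12.1, 14.2 and 12.97 CPM at 6 h and 7.96 and 13.4 CPM at 12 h. It was at 21.8 and 25.8 CPM in control 24 h and 10.2, 9.67 and 7.98 CPM at 24 h. From 6 h on no LatB library reached any control. The change was -1.15 ± 0.16, adjusted p = 6.64e-05 at 6 h, -1.44 ± 0.18, adjusted p = 6.19e-05 at 12 h (-1.87 without replicate 2) and -1.36 ± 0.17, adjusted p = 5.83e-05 at 24 h, after -0.18 ± 0.15, adjusted p = 0.417 at 3 h.

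DIAPH1, the related formin that acts below RhoA, was at 157, 151 and 143 CPM in control 0 h, 231, 250.2 and 245 CPM at 3 h and 245, 250.4 and 257 CPM at 6 h. It was at 136 and 121 CPM at 12 h, 148, 140.5 and 155 CPM at 24 h and 144 and 142 CPM in control 24 h. The 6 libraries of 3 h and 6 h lay far above all others, and by 24 h LatB and control overlapped. The changes were 0.69 ± 0.06, adjusted p = 1.27e-06 at 3 h, 0.74 ± 0.06, adjusted p = 4.99e-07 at 6 h, -0.22 ± 0.06, adjusted p = 0.0134 at 12 h and 0.05 ± 0.06, adjusted p = 0.541 at 24 h. The fall at 12 h was not called without LatB 12 h replicate 2 (-0.14).

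Of the other formins, FHOD1 fell at 3 h (-0.63 ± 0.12, adjusted p = 0.00112) and 6 h (-0.71 ± 0.12, adjusted p = 0.000357) and was at 0.09 at 24 h. From protein-coding transcripts alone its fall at 3 h was -0.34 and not called. INF2, which also severs filaments, fell from 6 h on (-0.36 ± 0.06, adjusted p = 0.000389 at 6 h, -0.73 at 12 h and -0.43 at 24 h). FMNL2 rose at 6 h alone (0.40 ± 0.10, adjusted p = 0.00468). FMNL3 was called higher at 24 h (0.36), but not without control 24 h replicate 1 (0.38) or 2 (0.35) or LatB 24 h replicate 2 (0.27). DAAM1 was called higher at 3, 6 and 24 h by 0.10 to 0.15, but not at 3 h without LatB 3 h replicate 1 (0.13) or 2 (0.12), at 6 h without any library but control 0 h replicate 3 (0.07 to 0.09), or at 24 h without control 24 h replicate 1 (0.13) or LatB 24 h replicate 3 (0.13). From protein-coding transcripts alone DAAM1 was 0.09 at 3 h, -0.0001 at 6 h and 0.08 at 24 h, none called. DIAPH2, at the lowest level of the formins, was not called in these comparisons (-0.31 to 0.30).

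Of the 3 genes of the WH2-domain nucleator families, 2 were called lower at 6, 12 and 24 h and 1 higher at 3 h and 6 h. Over all genes tested, 20.4%, 16.8% and 18.8% were lower at 6, 12 and 24 h, and 16.8% and 22.9% higher at 3 h and 6 h. COBL (cordon-bleu) was at 83.6, 85.7 and 80.9 CPM in control 0 h, 77.2, 84.3 and 73.9 CPM at 3 h, 74.8, 69.6 and 65.7 CPM at 6 h and 53.3 and 63.7 CPM at 12 h. It was at 89.99 and 96.7 CPM in control 24 h and 69.8, 64.7 and 70.1 CPM at 24 h. The groups overlapped at 3 h and were apart from 6 h on. The change was -0.25 ± 0.07, adjusted p = 0.0119 at 6 h, -0.51 ± 0.08, adjusted p = 0.000352 at 12 h and -0.45 ± 0.08, adjusted p = 0.000561 at 24 h. SPIRE1, which works with formins on vesicles, was at 47.6, 48.7 and 48.5 CPM in control 0 h, 47.3, 47.6 and 46.9 at 3 h, 41.5, 46.2 and 42.03 at 6 h and 33.2 and 33.4 at 12 h. It was at 45.2 and 47.4 CPM in control 24 h and 39.6, 37.3 and 38.5 CPM at 24 h. Its lowest libraries were those of 12 h, with a change of -0.54 ± 0.05, adjusted p = 6.4e-06, against -0.16 ± 0.05, adjusted p = 0.0129 at 6 h and -0.27 ± 0.05, adjusted p = 0.000943 at 24 h. COBLL1 went against them, higher at 6 h (0.29 ± 0.07, adjusted p = 0.00411) and at 3 h (0.24, not called without control 0 h replicate 1 (0.21) or 2 (0.23) or LatB 3 h replicate 1 (0.21) or 3 (0.19)).

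Because several families hold 2 or more genes of like function, their balance was described as a ratio of TPM within each library. ARPC5L over ARPC5 lay at 0.192 to 0.2 in control 0 h and 0.313 to 0.361 at 3 h of LatB, and at 0.224 to 0.263 at 24 h against 0.201 to 0.203 in control 24 h. PFN2 over PFN1 lay at 0.503 to 0.559 in control 0 h and 0.309 to 0.331 at 3 h, and at 0.443 to 0.466 at 24 h against 0.532 to 0.549 in control 24 h. TMSB10 over TMSB4X passed 1 at 12 h and 24 h, with 0.742 to 0.86 in control 0 h, 1.06 to 1.07 at 12 h and 1.04 to 1.23 at 24 h against 0.753 to 0.76 in control 24 h. In each of these 3 ratios the LatB libraries of 24 h did not overlap with control 24 h.

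DSTN over CFL1 was 0.336 to 0.384 in control 0 h, 0.399 to 0.434 in control 24 h and 0.232 to 0.267 at 24 h of LatB. The 2 control groups did not overlap in this ratio. DIAPH3 over DIAPH1 was 0.21 to 0.262 in control 0 h, 0.136 to 0.158 at 3 h, when only DIAPH1 was called, and 0.0621 to 0.0783 at 6 h, when both were. TMOD1 over TMOD3 was 0.146 to 0.175 in control 0 h and 0.313 to 0.363 at 6 h, and 0.0688 to 0.128 at 24 h against 0.163 to 0.185 in control 24 h. These ratios show unequal change and not which partner moved, and they were not tested.

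**Figure D5:**
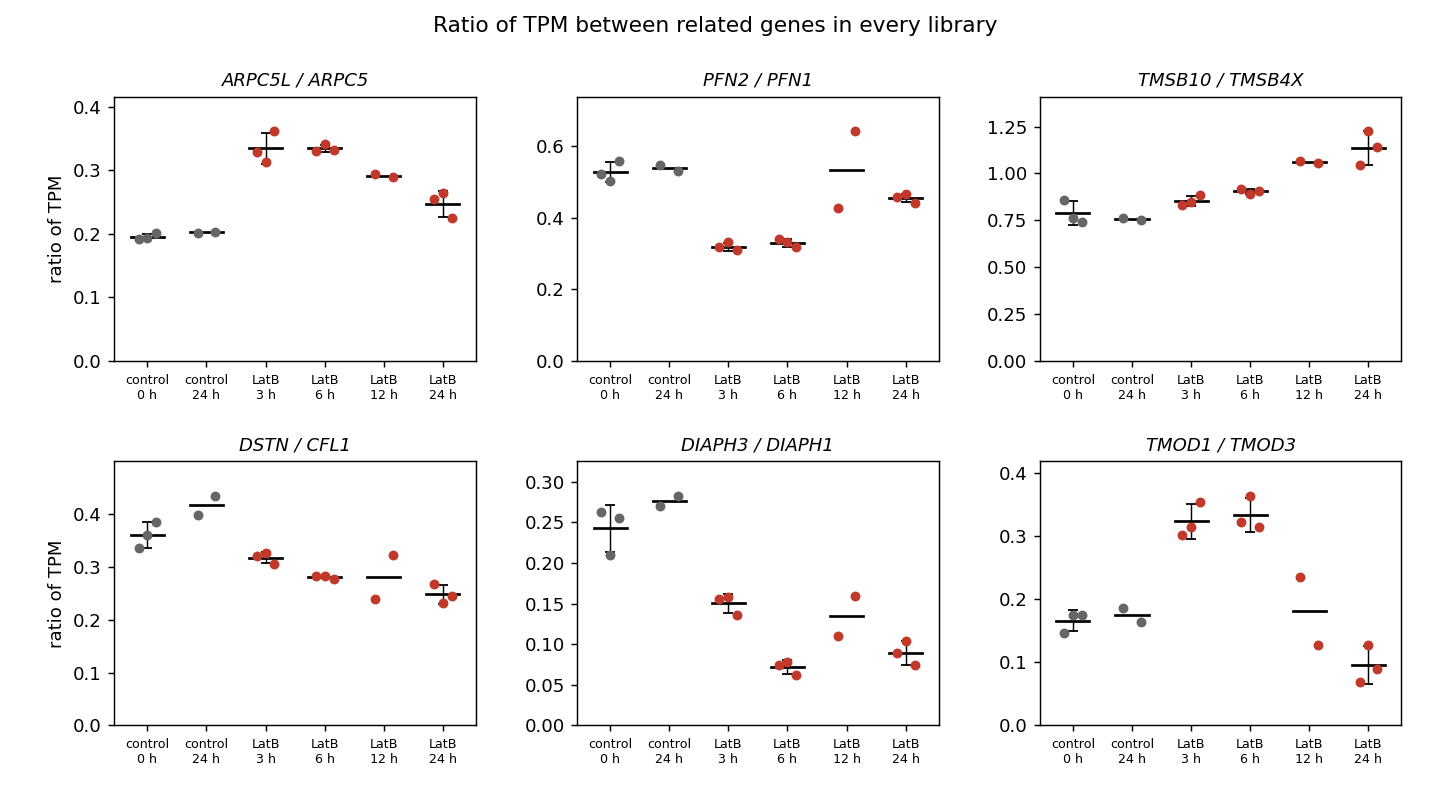
Ratio of TPM between related genes in each library by group, with group means as lines and SDs as error bars for groups of 3. The ratio of ARPC5L to ARPC5 is highest at 3 h and 6 h, that of TMSB10 to TMSB4X lies above 1 at 12 h and 24 h, and the ratios of PFN2 to PFN1 at 12 h are spread from 0.427 to 0.642.

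In control 24 h against control 0 h none of the 55 members was called by edgeR, where 0.251% of all genes were (0.0299% higher and 0.221% lower), and none by DESeq2, while 1 had an unadjusted p under 0.05. To ask whether the response itself changed, the effect at 24 h (against control 24 h) was compared with that at 3 h (against control 0 h). The difference was called in 22 members, 10 toward higher and 12 toward lower, against 27.9% of all genes (14.6% higher and 13.4% lower). Without TMM scaling these were 16 and 7, beside 3583 higher and 1608 lower of all 16705 genes tested. The widest differences were those of TMOD1 (-1.68 ± 0.30, adjusted p = 0.00129), DIAPH3 (-1.18 ± 0.23, adjusted p = 0.00221) and SCIN (-1.01 ± 0.22, adjusted p = 0.00384) toward lower. Toward higher they were those of FHOD1 (0.72 ± 0.18, adjusted p = 0.00809) and PFN2 (0.71 ± 0.12, adjusted p = 0.000662), whose early falls were no longer called at 24 h. From protein-coding transcripts alone the difference of FHOD1 was 0.51 and not called. Leaving out control 24 h replicate 1 leaves 1 library in that group. The differences of TMSB10, LIMK1, PFN1, CAP1, TMOD3 and FMNL3 were then 0.34, 0.26, 0.22, 0.20, 0.22 and 0.56.

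LatB 24 h was also set directly against LatB 6 h, a comparison in which no control enters and time in culture is a part. It called 10 members higher and 15 lower, against 37.9% of all genes (19.0% higher and 18.9% lower), and 23 and 8 without TMM scaling, which shifted the median of all genes to 0.14. Of all 16705 genes tested, 5224 were then higher and 1852 lower. TMOD1 (-1.70 ± 0.21, adjusted p = 3.61e-05), DIAPH1 (-0.76 ± 0.06, adjusted p = 6.84e-07) and FMNL2 (-0.63 ± 0.10, adjusted p = 0.000245) were lower at 24 h than at 6 h. FHOD1 (0.84 ± 0.12, adjusted p = 0.00012), PFN2 (0.63 ± 0.08, adjusted p = 3.81e-05), ARPC5 (0.37 ± 0.06, adjusted p = 0.000252) and CORO1C (0.34 ± 0.06, adjusted p = 0.000719) were higher. INF2 (-0.01) and COBL (-0.04) were not called in this comparison.

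Of 70 other genes of actin turnover that are not among the 55, 65 were tested. At 3 h 15 were called higher and 8 lower (35.4% against 31.6% of all genes), at 6 h 17 and 15 (49.2% against 43.3%), at 12 h 9 and 15 (36.9% against 35.8%), and at 24 h 7 and 14 (32.3% against 40.8%). Their median log2 fold change was 0.04, -0.04, -0.06 and -0.08 at these times. Among called genes the widest rises were those of FHDC1, a formin, at 6 h (1.24 ± 0.36, adjusted p = 0.0129), AVIL (advillin), a gelsolin relative, at 3 h (1.08 ± 0.21, adjusted p = 0.00173), and MICAL2, which oxidises actin, at 12 h (1.05 ± 0.18, adjusted p = 0.000545). Among called genes the widest falls were those of LMOD1, a leiomodin that nucleates actin in smooth muscle, at 6 h (-2.63 ± 0.49, adjusted p = 0.00075), GRID2IP, which holds a formin domain, at 12 h (-1.75 ± 0.33, adjusted p = 0.00116), and EPS8L2, a relative of the capping and bundling protein EPS8, at 24 h (-1.05 ± 0.15, adjusted p = 0.000131). Without LatB 12 h replicate 2, the library with high stromal markers, MICAL2 was 0.62 higher and still called, as was GRID2IP.

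Since SRF binds the CArG box, the 250 bases before the start were searched on both strands for that motif in RefSeq promoters (GRCh38.p14). It was found in 407 of 35116 promoters (1.16%) and in 0 of the 82 promoters of the 50 members that matched the table, which says only that these letters are not in this window.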

How the data were processed

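PolyA RNA of 16 libraries was prepared with the NEBNext Ultra II RNA kit. Per the submitters' processing notes, transcripts were quantified with Salmon 1.3.0 on hg38, and the study's methods name STAR in place of it. The authors deposited estimated counts (expected counts of reads, which need not be whole) and TPM per transcript and library, together with a table of their own DESeq2 comparisons, which was not used and holds fold changes, p-values and 16 columns of normalized per-sample values. Strand use in the counting is not given in the sources used here.

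Estimated counts and TPM were summed per gene through GENCODE release 44. Transcripts not matched to it held 2.92% to 3.17% of reads and were left out. Sums were rounded and tested with edgeR 4.0.16 in R 4.3.3 (TMM scaling with factors of 0.9475 to 1.0518, filterByExpr, quasi-likelihood fit over all 6 groups, Benjamini-Hochberg adjustment over 16705 genes, called at an adjusted p under 0.05). Fold changes are log2 with SE, written as value ± SE, and CPM are TMM-scaled. Groups come from the sample titles. The procedure was also run on simulated counts, drawn for independent libraries with the spread fitted here. Such counts cannot show technical replication, an outlying library or unsuited controls. Alternatives were other scalings, filters and thresholds, DESeq2 1.42.0, limma 3.58.1 on log2(TPM + 1) and log2(TPM + 0.1), other transcript sets, another control, a replicate block and leaving out each library.

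The members and gene lists were chosen with earlier results of these data known. Named in every library were, per role, the 2 members with the largest called log2 fold change in a LatB comparison and any other at 1 or more where called. Other members were named where at the end of a role's range, against its direction or never called, and of the other turnover genes the 3 largest rises and falls. Depth was 23609727 to 33515398 estimated reads per library, and estimated reads are not independent molecules.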

Additional observations from a re-analysis of the deposited data

Results flagged for a closer look

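For 22 members the effect of LatB at 24 h differed from that at 3 h by edgeR's test of the difference itself (adjusted p under 0.05), and the values are the effect at 24 h minus that at 3 h on the log2 scale. The effect was lower at 24 h for TMOD1 (-1.68), DIAPH3 (-1.18), SCIN (-1.01), CTTN (-0.65), DIAPH1 (-0.64), INF2 (-0.48), WASL (-0.39), COBL (-0.36), WASF2 (-0.30), ABI1 (-0.29), SPIRE1 (-0.24) and NCKAP1 (-0.23). It was higher at 24 h for FHOD1 (0.72), PFN2 (0.71), FMNL3 (0.54), TWF2 (0.43), TMSB10 (0.39), ARPC5 (0.39), CAP1 (0.28), PFN1 (0.28), LIMK1 (0.28) and TMOD3 (0.26). Each effect has its own controls, control 24 h and control 0 h. Without control 24 h replicate 1 the difference was not called for TMSB10 (0.34), LIMK1 (0.26), PFN1 (0.22), CAP1 (0.20), TMOD3 (0.22) and FMNL3 (0.56). Without control 24 h replicate 2 it was not called for NCKAP1 (-0.18), COBL (-0.31), SPIRE1 (-0.20), WASF2 (-0.28), LIMK1 (0.30) and FMNL3 (0.52). CAP1 was also lost without any of 6 other libraries (0.24 to 0.28), LIMK1 without control 0 h replicate 2 (0.25) or LatB 24 h replicate 2 (0.27) or 3 (0.26), PFN1 without control 0 h replicate 1 (0.25), FMNL3 without control 0 h replicate 2 (0.47) or LatB 24 h replicate 2 (0.45), and COBL without LatB 3 h replicate 2 (-0.30) or LatB 24 h replicate 2 (-0.33).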

How the results depend on the processing

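Of the 146 calls of members in the 6 comparisons with any call, 65 were kept under every alternative, 81 were lost under at least 1 and 7 of these changed sign under at least 1. By alternative, 143 of 146 were kept with RLE size factors, 143 with DESeq2, 143 with a mean of at least 50 counts, 145 with pseudogene reads added, 127 with protein-coding transcripts, 120 without a filter, 117 without scaling, 126 with only the compared groups and 87 on either TPM scale, and 77 of 99 with the other control. Counts of members in this section are given without the share of all genes called under the same setting. The members called at 3, 6 and 12 h were 11, 19 and 16 at an adjusted p under 0.01, and those of the difference between 24 h and 3 h were 12. With a log2 change of at least 0.5 they were 4, 6, 11 and 6 at 3, 6, 12 and 24 h, 8 for the difference and 8 for LatB 24 h against LatB 6 h. On both TPM scales they were 17 at 6 h, 17 at 24 h and 14 for the difference, and 14 at 12 h with only the compared groups. Leaving out 1 library gave 13 to 17 at 3 h, 22 to 27 at 6 h, 20 to 23 at 12 h, 17 to 26 at 24 h (17 without control 24 h replicate 1), 0 in control 24 h against 0 h, 16 to 23 for the difference and 20 to 25 for LatB 24 h against 6 h. Values that changed sign were WASL at 3 h with the other control (-0.0067), DAAM1 at 6 h from protein-coding transcripts (-0.0001), and on log2(TPM + 1) and log2(TPM + 0.1) CFL2 at 12 h (0.0562, 0.0574), CAP1 at 24 h (-0.0554, -0.0556), SPIRE1 in the difference (0.0754, 0.0778), COBLL1 in LatB 24 h against 6 h (0.0001 in both) and SCIN in the same comparison (0.0036, first scale only). The cause was not tested. Deviations from group means of same-numbered samples correlated at -0.241 to 0.1159 over 36 pairs of libraries, 2 of them over 0.1. Those of differently numbered samples correlated at -0.1375 to 0.241. Deviations within such small groups are bound to each other, so these values do not settle whether replicate numbers pair the samples. With the number as a replicate block 17, 27, 21 and 24 members were called at 3, 6, 12 and 24 h, 0 in control 24 h against 0 h, 21 for the difference and 22 for LatB 24 h against 6 h, and 132 of 146 calls were kept. Depth and group size were not varied other than by leaving out libraries.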
